A study of Mus musculus with 21 samples.

Results

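The transcripts described here serve glucuronidation, the attachment of glucuronic acid to bilirubin, steroids, bile acids, drugs and plant phenols such as quercetin. They comprise 8 UDP-glucuronosyl- or UDP-glycosyltransferases (Ugt1a1, Ugt2a3, Ugt2b1, Ugt2b5, Ugt2b34, Ugt2b35, Ugt2b36 and Ugt3a2) and the enzymes Ugdh and Ugp2, which supply the sugar donor. Members were found as the non-control spots that carry one of these 10 gene names, and 9 of the 10 had a spot. No spot was named Ugt1a1. The 9 genes were read by 12 of the 55681 probes on the array, and all 12 were among the 26291 probes kept for testing because their Cy5 signal stood well above background on at least 10 of the 21 arrays.

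The livers came from adult C57BL/6J males that ate a high-fat diet for 12 weeks, either with quercetin at 0.33% by weight (HF-Q, 10 livers) or without it (HF, 11 livers). All mice had first spent 3 weeks on a normal-fat diet and were fasted for 2 to 4 hours before the liver was taken. Of 24 mice, 3 are not represented, because their arrays were left out by the submitters for uneven hybridisation. Each array held 1 liver in Cy5 and an equimolar pool of all livers in Cy3, with the dyes never swapped, so the values below are log2 ratios, liver over pool. A dye effect of a probe stays in its ratio but not in the difference between diets. No normal-fat group enters the comparison.

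In hepatocytes, UDP-glucose pyrophosphorylase (Ugp2) joins UTP and glucose-1-phosphate into UDP-glucose, which also feeds glycogen synthesis. UDP-glucose dehydrogenase (Ugdh) oxidises UDP-glucose to UDP-glucuronic acid, and transferases in the membrane of the endoplasmic reticulum pass the glucuronic acid to their substrates. Ugt1a enzymes are spliced from own first exons to shared last exons, with Ugt1a1 known for bilirubin, whereas Ugt2b genes are separate, closely related genes in a cluster on mouse chromosome 5. Human UGT3A2 uses other UDP sugars than UDP-glucuronic acid.

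The probes are 60 bases long and carry coordinates of mouse build NCBI37 (mm9) in the scanner files. The probes of the donor supply and the Ugt2b36 probe are shown by bases 16 to 45, counted from 1 at the probe's 5′ end as the file gives it, because the results below turn on them.
Ugp2, first probe, chr11:21221975-21222034, minus strand: gcactttcagatacactttctactaattat
Ugp2, second probe, chr11:21221281-21221340, minus strand: gaagttacctctcattacagcttcagttct
Ugdh, chr5:65804532-65804591, minus strand: gttacatttgcatctgtgagtcaagaaatg
Ugt2b36, chr5:87495455-87509913, minus strand: ctttctataaagagaatgctatgtggttgt
The Ugp2 probes do not overlap and are separate readings of 1 gene. The Ugt2b36 probe covers 14459 bases of genome and therefore crosses a splice junction, and its accessions name Ugt2b36 and Ugt2b37, so its signal cannot be given to 1 of these genes alone. The transcript of Ugt1a1 is among the accessions of a probe named Ugt1a6a, which lists 4 Ugt1a genes and stood above background on 6 arrays, so no value is given for Ugt1a1.

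Closely related genes can share signal on an array. Among 171 pairs of Ugt probes, 1 pair had an alignable stretch of 20 or more bases, that of Ugt2b5 with Ugt2b37, where 42 of 44 bases were identical. Probes were set against probes only, not against the transcripts of related genes. The stretch is shown because these genes are compared below. Capitals mark the bases that differ, T12A and A21G, counted from 1 at the 5′ end of the window with the Ugt2b5 base first.
Ugt2b5: agcctcattctTatttatgaAccaccttct
Ugt2b37: agcctcattctAatttatgaGccaccttct

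The share of probes with a Cy5 signal well above background ran from 44.2% to 51.3% per array, and all 12 member probes were so on every array with none saturated. All 6 hepatocyte markers (Alb, Apoa1, Ttr, Trf, Cps1 and Tat) were above background on all 21 arrays. Of 6 pancreatic acinar markers 3 were kept, and they were uneven: Ctrb1 reached a log2 ratio of 2.38 in HF replicate 11 and 1.60 in HF replicate 5, which were also the 2 highest livers for Cpa1 and Amy2a5. Differences between diets were also taken without both of these livers, but correlations were not. The part of acinar RNA in the other livers was not tested. The kept acinar markers were lower in HF-Q livers, by a log2 difference of -0.62 for Cpa1, -0.12 for Amy2a5 and -0.42 for Ctrb1, and 0 of 3 had an unadjusted p under 0.05. Of 4 intestinal markers, Fabp2 and Apoa4, which liver also expresses, were kept and differed by -0.22 and -0.38 (unadjusted p = 0.0610 and 0.0356 by limma). Cdx2 was above background on 0 arrays and Vil1 on 2. These differences have the sign of that of Ugp2 below, and their part in it was not tested. In bulk liver, fewer cells of a type and less RNA per cell cannot be told apart.

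No member passed the test between diets. Of 26291 probes, 0 passed (0% at an adjusted p under 0.05 by limma with Benjamini-Hochberg adjustment, lowest adjusted p 0.505), and 1486 (5.65%) had an unadjusted p under 0.05, 2.75% lower and 2.90% higher in HF-Q livers. With 1 probe per gene, 5.86% of 19718 genes had an unadjusted p under 0.05 (2.88% lower and 2.98% higher), and 1 of the 9 members did, Ugp2. Point estimates were below 0 for 8 of the 9 members and for 53.1% of all genes, and above 0 for 1 member and 46.9% of all genes (47.6% of all probes). The median was -0.038 over the members and -0.0044 over all genes. That count is not stable: 3 members were lower with median centring in place of loess, where 35.3% of all probes were lower against 52.4% with loess, and 4 were lower in the authors' deposited table.

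Ugp2, which makes UDP-glucose, had the largest difference of the members. Its log2 ratios in HF-Q livers, replicates 1 to 10, were -0.44, -0.38, -0.21, -0.055, -0.46, -0.081, -0.48, -0.034, -0.55 and 0.12. In HF livers, replicates 1 to 11, they were -0.24, -0.19, 0.16, -0.077, -0.077, -0.028, -0.33, 0.10, 0.27, -0.21 and 0.22. The groups overlapped: 5 of 10 HF-Q livers lay below the lowest HF liver, 4 others lay between -0.21 and -0.034, and HF-Q replicate 10 lay with the higher HF livers. The mean was -0.26 ± 0.23 in HF-Q livers (SD, n = 10) and -0.036 ± 0.20 in HF livers (SD, n = 11).

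The log2 difference of Ugp2 was -0.22 ± 0.088 (SE, limma, 95% interval -0.40 to -0.038, unadjusted p = 0.0199, adjusted p = 0.839 over all probes). The second Ugp2 probe gave -0.25 ± 0.088 (SE, 95% interval -0.43 to -0.067, unadjusted p = 0.00945, adjusted p = 0.839). On it, 9 of 10 HF-Q livers lay below the HF median and 4 below the lowest HF liver. On the first probe, 7 of 10 lay below the HF median. Both probes ranked the livers alike (r = 0.93 after the mean of each diet was subtracted), so the second reading repeats the same RNA and is no second sample. The difference was -0.28, -0.40 and -0.11 on slides 1, 2 and 3, each of which held both diets. It was -0.20 without HF replicates 5 and 11, and its unadjusted p was 0.253 with median centring and 0.0715 in the deposited table. As a ratio, HF-Q livers had 0.858 times the HF level.

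Cy5 signals behind these ratios were far above the local background of 33 to 36. The first Ugp2 probe had a mean spot signal of 10946 to 19473 (median 15885) in HF-Q livers and 13859 to 22477 (median 18780) in HF livers. The second probe had 3571 to 6062 (median 5251) in HF-Q livers and 4792 to 7078 (median 6200) in HF livers. The medians were lower in HF-Q livers on both probes, and the ranges overlapped on both.

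Ugdh, which turns UDP-glucose into the glucuronyl donor, showed no difference beyond its spread. Its log2 ratios in HF-Q livers, replicates 1 to 10, were 0.16, -0.11, -0.21, 0.050, 0.26, -0.18, 0.68, 0.11, 0.44 and 0.0070. In HF livers, replicates 1 to 11, they were 0.013, 0.11, -0.030, -0.23, 0.20, 0.16, 0.35, -0.039, 0.15, 0.33 and -0.24. HF-Q replicates 7 and 9 stood above every HF liver, and the other 8 HF-Q livers lay within the HF range. The mean was 0.12 ± 0.28 in HF-Q livers (SD, n = 10) and 0.069 ± 0.20 in HF livers (SD, n = 11), a difference of 0.052 ± 0.097 (SE, 95% interval -0.15 to 0.25). The sign rested on 1 liver, since the difference was -0.010 without HF-Q replicate 7.

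**Figure D1:**
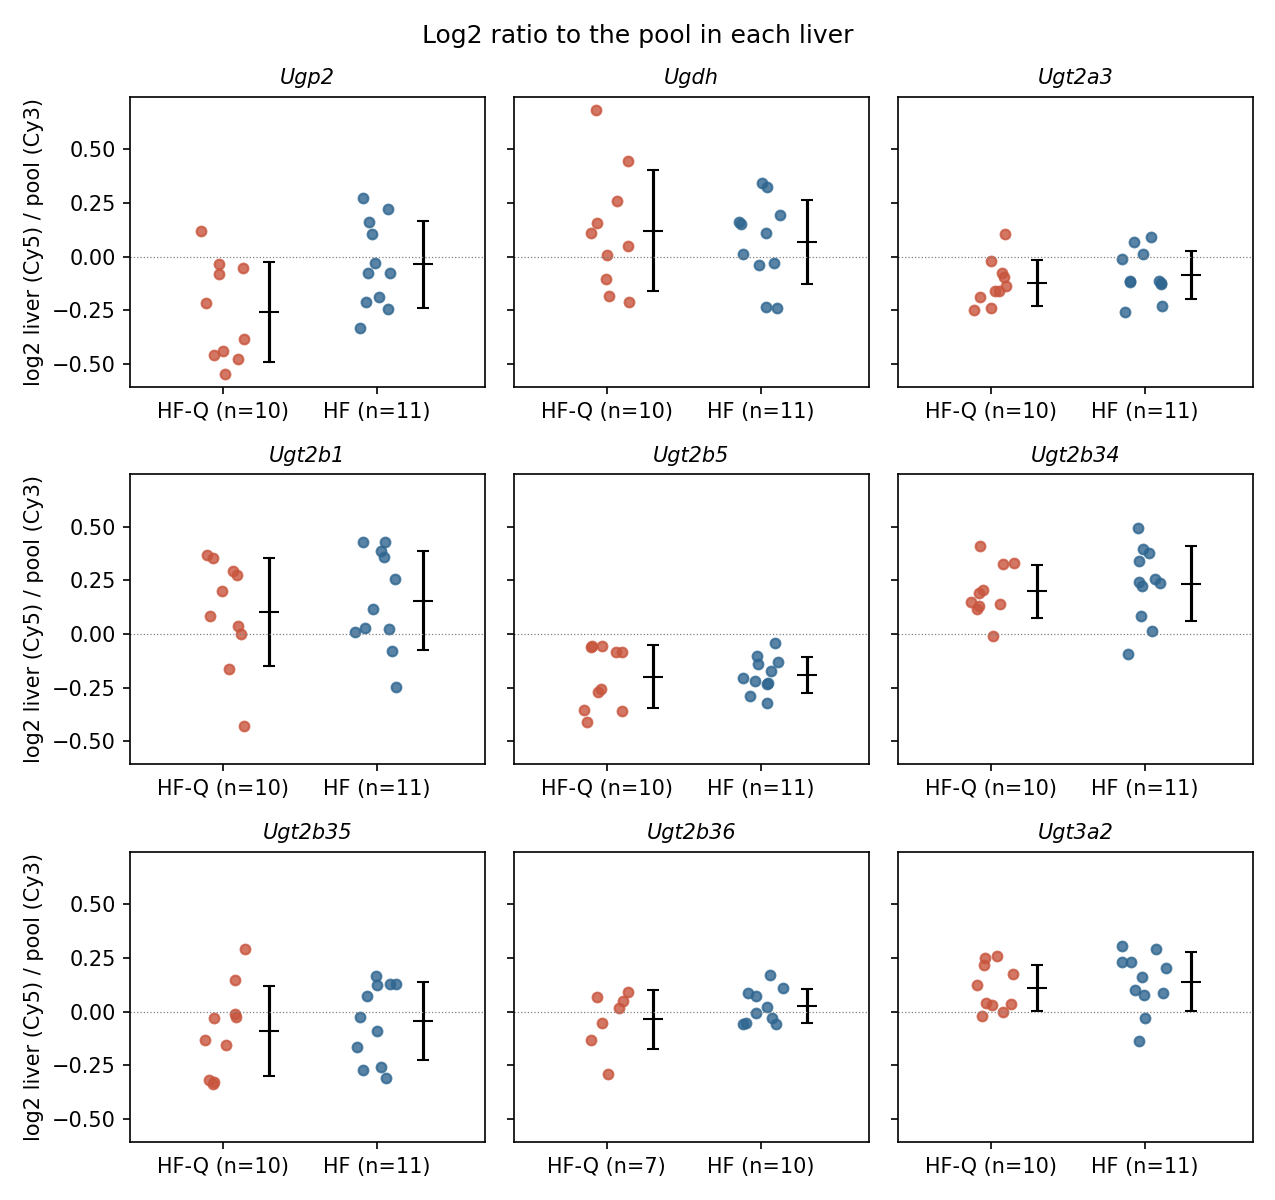
Log2 ratio of each liver to the pool (vertical axis) for the probe that stands for each of 9 genes, with 1 point per liver, HF-Q on the left and HF on the right, and a bar for mean ± SD. Ugp2 reaches from -0.55 to 0.12 in HF-Q livers and from -0.33 to 0.27 in HF livers, and the groups overlap in every panel.

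The 7 transferases with a spot were close to equal between diets. Their log2 differences lay between -0.062 and -0.0086 with a median of -0.038, 0 of 7 had an unadjusted p under 0.05, and every 95% interval lay within -0.25 to 0.15. These intervals cover the representative probes. A difference of the size estimated for Ugp2 lay outside the interval of 6 of the 7 transferases and inside that of Ugt2b1.

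Ugt2b1, a transferase known in rodents for steroids and drugs, varied most among the transferases. Its log2 ratio ran from -0.43 to 0.37 (median 0.14) in HF-Q livers and from -0.25 to 0.43 (median 0.12) in HF livers. The difference was -0.053 ± 0.097 (SE, 95% interval -0.25 to 0.15), and it did not keep its direction across slides, at 0.14, 0.044 and -0.34 on slides 1, 2 and 3.

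Ugt2b5, Ugt2b36, Ugt2b34 and Ugt2b35 belong to the same chromosome 5 cluster. Ugt2b5 was below the pool in all 21 livers, from -0.41 to -0.054 in HF-Q livers and from -0.32 to -0.043 in HF livers, with a difference of -0.0086 ± 0.051 (SE). The pool is made of the livers and the dye effect of a probe stays in its ratio. The side of the pool is therefore not read as expression, here or for Ugt2b34 below. Ugt2b36 had the lowest unadjusted p of the transferases, with log2 ratios of -0.29 to 0.091 in HF-Q livers (n = 7) and -0.059 to 0.17 in HF livers (n = 10). Its difference was -0.062 ± 0.054 (SE, unadjusted p = 0.264 by limma), and 4 livers are missing from it because their spots were uneven or outlying (HF-Q replicates 6, 9 and 10 and HF replicate 3).

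Ugt2b34 was above the pool in 9 of 10 HF-Q livers and 10 of 11 HF livers, and its difference was -0.035 ± 0.064 (SE). Ugt2b35 ran from -0.34 to 0.29 in HF-Q livers and from -0.31 to 0.17 in HF livers, with a difference of -0.044 ± 0.080 (SE). Its second probe gave -0.00080 ± 0.062 (SE), and the 2 probes correlated across livers at r = 0.68. For these genes the diets overlapped over nearly their whole range.

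Ugt2a3, another chromosome 5 transferase, had log2 ratios of -0.25 to 0.11 in HF-Q livers and -0.26 to 0.089 in HF livers. Its difference was -0.038 ± 0.049 (SE). Ugt3a2, on chromosome 15, ran from -0.019 to 0.26 in HF-Q livers and from -0.14 to 0.31 in HF livers, with a difference of -0.028 ± 0.054 (SE). Its second probe, which crosses a splice junction, gave 0.056 ± 0.051 (SE) in the other direction, and the 2 probes correlated at r = 0.28, so the sign for Ugt3a2 depends on the probe.

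**Figure D2:**
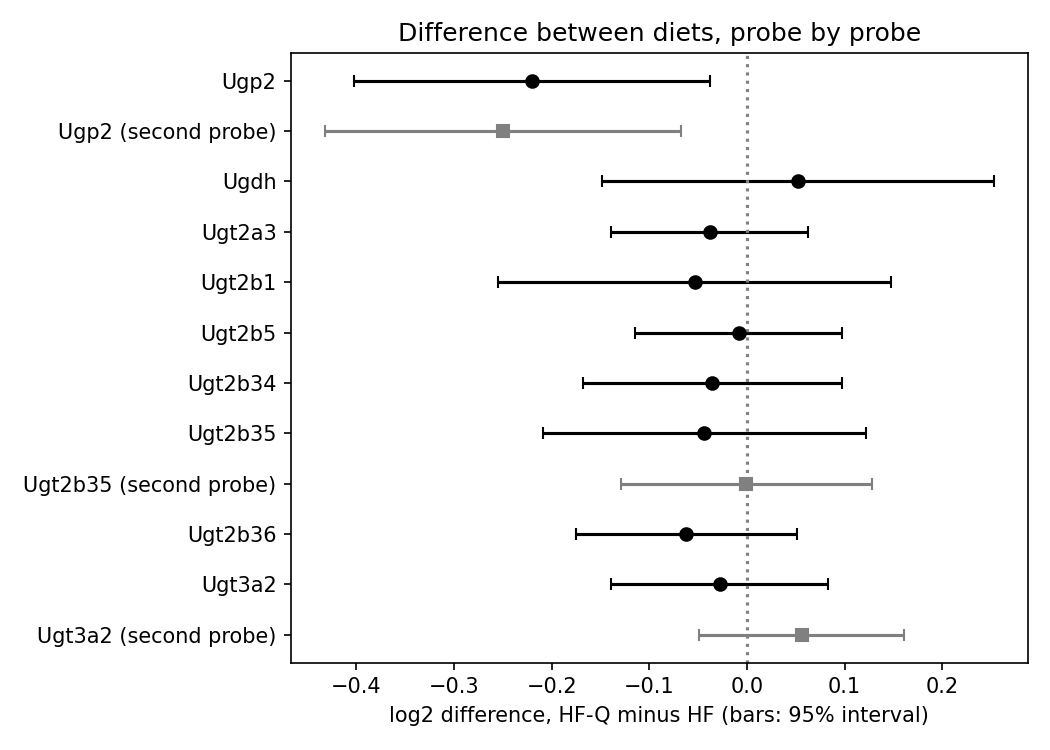
Log2 difference of HF-Q minus HF (horizontal axis) for 12 probes of 9 genes, with 95% intervals from limma; black circles are the probes that stand for each gene and grey squares the second probes. The intervals of both Ugp2 probes end below 0, at -0.038 and -0.067, and those of the other 10 probes include 0.

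Mean Cy5 signals of the transferase probes spanned a wide range, given here over the livers whose spots were used. The median was 51073 in HF-Q and 51094 in HF livers for Ugt2b5, and 51689 in HF-Q and 48335 in HF livers for Ugt2b34. It was 44409 in HF-Q and 44250 in HF livers for Ugt2b36, and 30271 in HF-Q and 30591 in HF livers for the first Ugt3a2 probe. It was 17552 in HF-Q and 17652 in HF livers for Ugt2a3, 9403 in HF-Q and 9779 in HF livers for Ugt2b1, and 4871 in HF-Q and 5246 in HF livers for Ugt2b35. The second probes had 731 in HF-Q and 750 in HF livers for Ugt2b35 and 605 in HF-Q and 580 in HF livers for Ugt3a2. Signals of different probes are not compared, since probes bind with different strength.

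Set as a whole against donor supply, the mean log2 ratio of the transferases was -0.0020 ± 0.10 in HF-Q livers (SD, n = 10) and 0.032 ± 0.088 in HF livers (SD, n = 11). The gap between Ugdh and Ugp2, the log2 ratio of Ugdh minus that of Ugp2, was 0.38 ± 0.46 in HF-Q livers and 0.11 ± 0.35 in HF livers. The gap was taken with the first Ugp2 probe, and was above 0 in 8 of 10 HF-Q livers and 6 of 11 HF livers. These counts depend on the probe, since dye effects stay in the ratios and 0 has no fixed meaning for the gap. The second Ugp2 probe had higher mean ratios, at -0.15 in HF-Q and 0.097 in HF livers. HF-Q replicate 7, at 1.16, and HF-Q replicate 9, at 0.99, had the widest gaps, and HF replicate 11, at -0.46, had the most negative one. No p is given for these scores.

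For most members the spread among livers of 1 diet was larger than the difference between diets, while for Ugp2 they were of like size. Within groups the SD was 0.24 for Ugt2b1, 0.24 for Ugdh and 0.22 for Ugp2, larger than that of 93.0%, 93.0% and 90.6% of kept probes. Ugt2b36, Ugt2a3 and Ugt2b5 lay at the other end, with SDs of 0.11, 0.11 and 0.12. How the members moved together from liver to liver was tested in 36 pairs, with diet means subtracted and 100000 permutations per pair (two-sided), and 9 pairs had a Benjamini-Hochberg adjusted p under 0.05 by Pearson's r and 8 by Spearman's rho. All members of a liver share its array and the pool. The share of pairs that would pass among all genes was not computed. The 9 of 36 pairs are therefore not read as particular to these genes, and the ranks below show other genes with like or higher r.

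The Ugt2b genes of the cluster moved together. Ugt2b5 and Ugt2b36 had r = 0.89 and rho = 0.87 over 17 livers (permutation p = 2e-05 and 4e-05, adjusted 0.00072 and 0.00144), and r was 0.83 without HF-Q replicates 2 and 3. Within slides 2 and 3 it was 0.87 and 0.91, while slide 1 gave too few livers with both values. The pairs among Ugt2b5, Ugt2b34, Ugt2b35 and Ugt2b36 all passed by r, the other 5 at r = 0.56 to 0.70 (adjusted p 0.0147 to 0.0391). By rho the pair of Ugt2b34 and Ugt2b36 had an adjusted permutation p of 0.0548. The pairs of Ugt2b34 with Ugt2b35 and with Ugt2b36 each passed in 12 of 21 runs that left out 1 liver. The adjusted permutation p was 0.0560 for Ugt2b34 and Ugt2b35 with scaling between arrays, and 0.0958 for Ugt2b34 and Ugt2b36 with Cy5 alone. HF-Q replicate 2 was among the 3 lowest HF-Q livers in all 4 of these genes. Ugt2b1, in the same cluster, did not follow them, with r = 0.089 to Ugt2b5 and -0.073 to Ugt2b36.

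Ranked over 12968 named genes, those most like Ugt2b36 were Ugt2b38 (r = 0.96), Slc6a9, a glycine transporter (r = 0.92), and Ugt2b5 (r = 0.89), each over 17 livers. Ugt2b35 ranked 189 and Ugt2b34 ranked 539 in that order. Ugt2b38 is a further transferase of the cluster, and its r with Ugt2b5 was 0.94 over 21 livers. Ugt2b37 had r = 0.84 with Ugt2b5 over 19 livers, and their probes share the stretch shown above. It had r = 0.70 with Ugt2b36 over 16 livers, whose probe lists both genes. The part of cross-hybridisation in these values was not tested. The probe alignments cannot show it, since a probe can bind a related transcript where that gene's own probe does not lie. The Ugt2b36 probe, which lists Ugt2b37, had no long stretch in common with the Ugt2b37 probe. A check chosen after these results set each member against the mean of the 200 probes nearest to it in brightness. For Ugt2b5, that mean had an SD over livers of 0.025 against 0.11 for the gene, with r = -0.074 between them. For Ugt2b36, it had an SD of 0.019 against 0.10, with r = -0.56. Loess had already evened out the ratios along brightness within each array, so a small SD of that mean follows from the normalization. The check therefore cannot show whether these genes share an array effect.

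**Figure D3:**
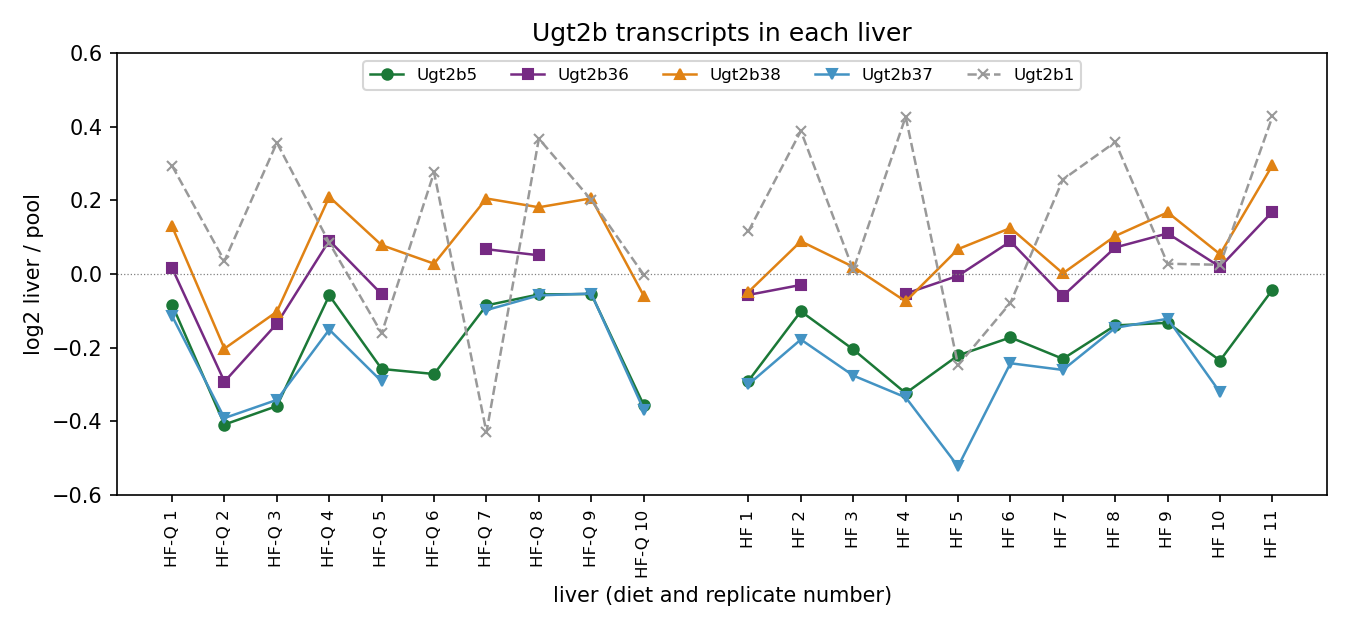
Log2 ratio to the pool (vertical axis) of Ugt2b5, Ugt2b36, Ugt2b38, Ugt2b37 and Ugt2b1 in each liver, HF-Q replicates on the left and HF replicates on the right; lines only join points of 1 gene, and gaps are spots left out. The first 4 genes are high and low in mostly the same livers, such as low in HF-Q replicate 2, and Ugt2b1 follows its own course.

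The promoters of Ugt2b5, Ugt2b36, Ugt2b38 and Ugt2b37 are shown because these genes moved together, with that of Ugt2b1 beside them. Each line gives the 80 bases before the transcription start from RefSeq (GRCm38.p6, all on the minus strand), with the hexamer AGGTCA, a core motif of nuclear receptor sites, in capitals.
Ugt2b5, chr5:87140341-87140420: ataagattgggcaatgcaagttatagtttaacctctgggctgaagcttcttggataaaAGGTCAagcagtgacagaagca
Ugt2b36, chr5:87092556-87092635: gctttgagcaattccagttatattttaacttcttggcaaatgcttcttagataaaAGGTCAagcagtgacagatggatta
Ugt2b38, chr5:87424204-87424283: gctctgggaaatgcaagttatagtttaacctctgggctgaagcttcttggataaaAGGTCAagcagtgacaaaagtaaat
Ugt2b37, chr5:87254789-87254868: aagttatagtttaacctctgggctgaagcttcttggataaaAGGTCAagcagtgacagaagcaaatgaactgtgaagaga
Ugt2b1, chr5:86926504-86926583: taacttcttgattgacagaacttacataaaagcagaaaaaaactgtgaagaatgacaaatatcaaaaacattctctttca
Ugt2b5, Ugt2b36, Ugt2b38 and Ugt2b37 carry the hexamer at positions -22, -25, -25 and -39 for its first base. It thus lies farther from the start in Ugt2b37, and the Ugt2b1 stretch has none on either strand. Ugt2b34 and Ugt2b35, which also moved with Ugt2b5, are not shown. Ugt2b34 had no AGGTCA in its 300-base window on either strand, and Ugt2b35 had it at -215, outside the 80 bases. Any link of the hexamer to the shared movement was not tested.

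Over the full 300-base windows, 9 of the 10 members matched an entry. Aligned bases were 90.0% identical between Ugt2b5 and Ugt2b38, 89.5% between Ugt2b5 and Ugt2b37 and 95.5% between Ugt2b37 and Ugt2b38. With Ugt2b5, Ugt2b36 was 74.5% identical over 271 aligned bases and Ugt2b1 73.6% over 239. AGGTCA was found on either strand in 5 of 10 Ugt2 windows and in 16.3% of all 32851 windows. The 5 include Ugt2b5, Ugt2b36, Ugt2b37 and Ugt2b38, which are related in sequence and so are not separate occurrences. Of the other motifs searched, GTTAAT was in 1 of 10 Ugt2 windows (7.10% of all windows) and AGTTCA in 2 (14.0%). GCGTG (32.4%) and TGACNNNGC (12.4%) were in 0 of 10. In Ugdh a GCGTG and a TGACNNNGC overlap. A match is a description of letters and no binding was measured. The donor genes have another kind of promoter: G and C made up 71.0% of the Ugdh window and 63.3% and 76.0% of the Ugp2 windows, against 31.7% to 43.3% in the Ugt2 windows of the members and a median of 52.7% overall.

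Ugp2 moved with Ugt2a3. Their r was 0.70 and rho 0.70 over 21 livers (permutation p = 0.00049 and 0.00048, adjusted 0.00882 and 0.00816). It was 0.64 without HF-Q replicate 8 and HF replicate 11, and 0.55, 0.72 and 0.87 within slides 1, 2 and 3. The genes most like Ugp2 among 12860 named ones were Abcg5, a sterol exporter of the liver (r = 0.90), Inmt, a methyltransferase (r = 0.86), and Il13ra1, an interleukin receptor chain (r = 0.85). Ugt2a3 ranked 95 in that order, so other genes outside the members followed Ugp2 more closely.

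Ugdh ran against Ugp2 and against Ugt2b1. For Ugdh and Ugp2, r was -0.55 and rho -0.62 over 21 livers (permutation p = 0.00926 and 0.00333, adjusted 0.0391 and 0.0240). It was -0.45 without HF-Q replicates 7 and 9, the 2 livers highest in Ugdh. It did not hold on every slide, at -0.72, -0.0074 and -0.50 within slides 1, 2 and 3. For Ugt2b1 and Ugdh, r was -0.60 and rho -0.59 (permutation p = 0.00396 and 0.00549, adjusted 0.0238 and 0.0329), at -0.54, -0.44 and -0.68 within slides. It was -0.41 without HF-Q replicate 7 and HF replicate 5. Both relations depend on the processing. With median centring they were 0.35 and 0.29, when 34 of the 36 pairs passed. The adjusted permutation p for Ugdh and Ugp2 was also 0.125 with Cy5 alone, 0.0983 in the deposited table and 0.0644 with slide as a block, and the pair passed in 10 of 21 runs that left out 1 liver. For Ugt2b1 and Ugdh it was 0.0958 with Cy5 alone, and the pair passed in 19 of 21 such runs.

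The genes most like Ugdh among 12860 named ones were Comtd1 (r = 0.87), Serinc2 (r = 0.85) and Csad (r = 0.84), each over 21 livers. Counted from the highest r, Ugp2 ranked 12674 and Ugt2b1 ranked 12754 of the 12860. Csad makes hypotaurine, the precursor of taurine. Its log2 difference between diets was 1.16 ± 0.34 (SE, limma adjusted p = 0.812). A probe of Ugt1a10, whose accessions also name Ugt1a9, had r = 0.81 with Ugdh and -0.68 with Ugt2b1 over 21 livers, and these were not tested.

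**Figure D4:**
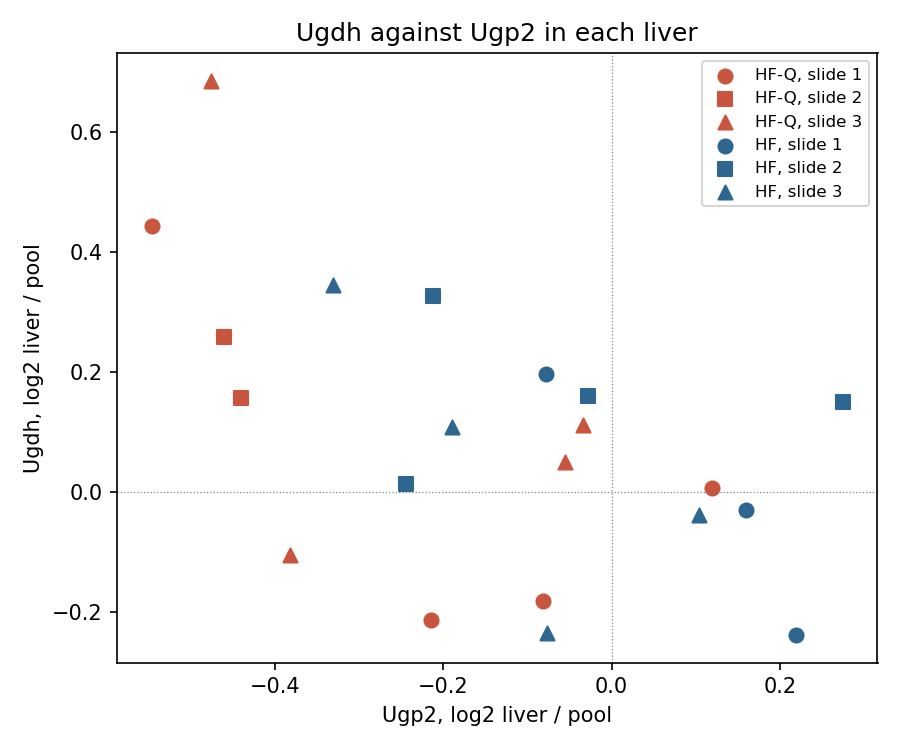
Log2 ratio to the pool of Ugdh (vertical axis) against that of Ugp2 (horizontal axis), 1 point per liver, HF-Q in red and HF in blue, with a marker shape for each slide. HF-Q replicate 7 (Ugdh 0.68, Ugp2 -0.48) and HF-Q replicate 9 (Ugdh 0.44, Ugp2 -0.55) sit at the upper left.

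**Figure D5:**
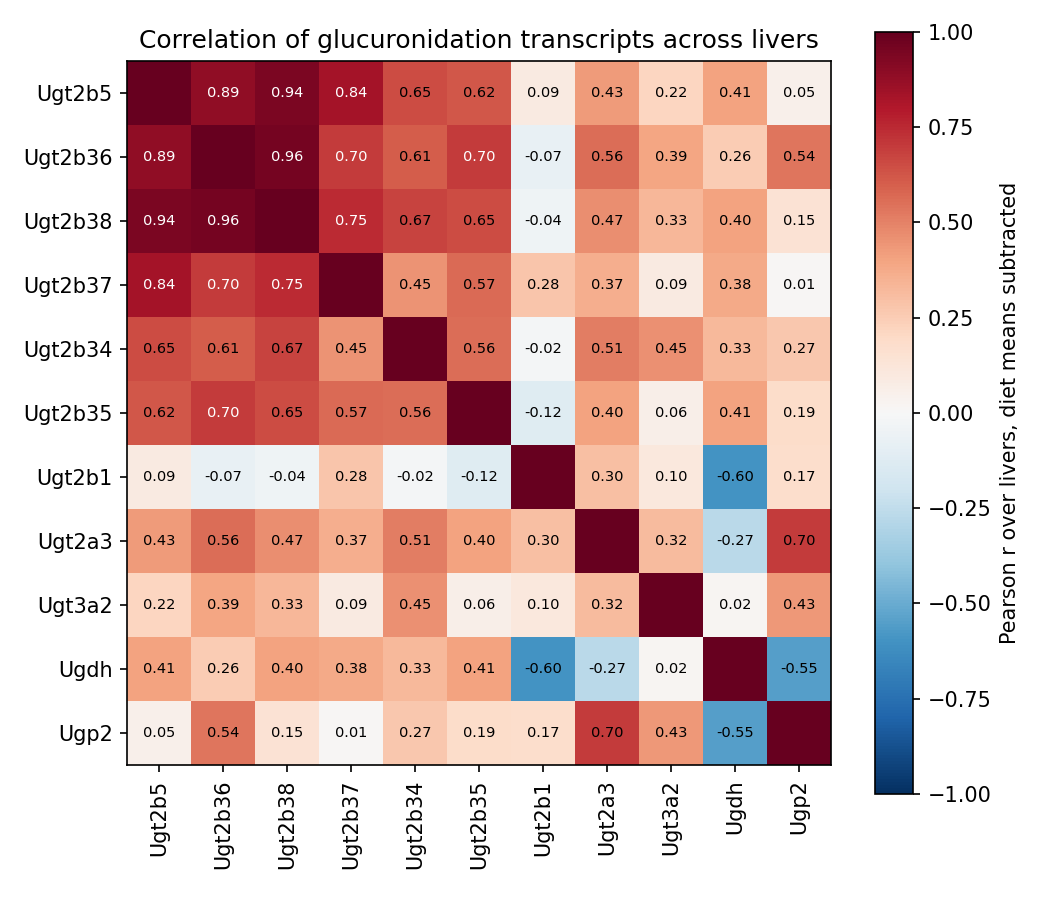
Pearson r over livers after diet means were subtracted, for 9 members and Ugt2b37 and Ugt2b38, in rows and columns; red is positive and blue negative. Ugt2b5, Ugt2b36 and Ugt2b38 form the strongest block, at 0.89 to 0.96, and Ugdh is negative with Ugp2 (-0.55) and Ugt2b1 (-0.60).

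The genes around the members were described from lists by role, with 5.86% of all genes at an unadjusted p under 0.05 and 0 of any list passing the adjusted test. Of 5 further transferases measured, 3 were lower and 2 higher in HF-Q livers with a median of -0.0053. Ugt1a6b, read by a probe that lists 4 Ugt1a genes, gave -0.096 ± 0.059 (SE), Ugt3a1 -0.039 ± 0.047 (SE), Ugt2b37 0.063 ± 0.058 (SE) and Ugt1a10 0.049 ± 0.14 (SE). None had an unadjusted p under 0.05, as for the transferase members.

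Of 9 genes of donor supply, Ugp2 and Ugdh included, 5 were lower and 4 higher. Pgm2 and Pgm1 are phosphoglucomutases, under RefSeq symbols where the probe's transcript matched and otherwise under those of the array. Pgm2 gave 0.14 ± 0.055 (SE, unadjusted p = 0.0158, limma adjusted p = 0.839), opposite in sign to Ugp2. The difference between these genes was not tested. Pgm1 gave -0.082 ± 0.046 (SE), and Slc35b1, a nucleotide carrier of the endoplasmic reticulum, 0.13 ± 0.066 (SE).

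Among 9 genes that draw on the same sugar nucleotides, 4 were lower and 5 higher, and Gbe1, the glycogen branching enzyme, gave -0.12 ± 0.051 (SE, unadjusted p = 0.0320, limma adjusted p = 0.856). Gys2, liver glycogen synthase, gave -0.26 ± 0.17 (SE), and Galt, a uridylyltransferase of galactose metabolism, 0.094 ± 0.084 (SE). Of 9 genes for the release and further metabolism of glucuronic acid, 8 were lower with a median of -0.078. Rgn, the gluconolactonase of ascorbate synthesis, gave -0.14 ± 0.064 (SE, unadjusted p = 0.0386, limma adjusted p = 0.861), Gulo, which makes the last step of that synthesis, -0.11 ± 0.062 (SE), Dhdh, a dihydrodiol dehydrogenase, -0.098 ± 0.051 (SE) and Dcxr, the L-xylulose reductase, -0.11 ± 0.069 (SE).

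Of 5 exporters of glucuronides, 4 were lower with a median of -0.097, among them Abcg2 at -0.12 ± 0.068 (SE), Abcc3 at -0.097 ± 0.072 (SE), Abcc2 at -0.097 ± 0.11 (SE) and Abcc1 at -0.087 ± 0.081 (SE). A list of 12 genes held receptors and factors known to act on Ugt genes and also Cyp2b10, which is a target and no such factor. Of these 12, 8 were lower and 4 higher, and 6, with Cyp2b10 among them, had an unadjusted p under 0.05 by limma. Nr1h4, the bile acid receptor, gave -0.20 ± 0.055 (SE) and Nr1i3, the constitutive androstane receptor, -0.18 ± 0.064 (SE). Foxa3, a liver transcription factor, gave 0.22 ± 0.092 (SE), and Cyp2b10, a target of Nr1i3 listed with them, -1.34 ± 0.33 (SE, limma adjusted p = 0.695). Of the sulfotransferases, which conjugate flavonoids with sulfate, Sult1b1 gave -0.13 ± 0.097 (SE), Sult1a1 -0.096 ± 0.091 (SE) and Sult1d1 -0.085 ± 0.11 (SE).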

How the data were processed

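RNA of 21 mouse livers was measured on 2-colour Agilent arrays, with liver in Cy5 and a pool in Cy3, per the labels. For every array the authors deposited scanner files, made with Agilent Feature Extraction 10.7.3.1 per the submitters' processing notes, whose mean and background spot intensity is not normalized, per the file headers. They also deposited a table of log2 values, whose columns all had a median of 7.92 and correlated with log2 Cy5 at r = 0.985 to 0.999. How that table was made is not stated, and it served as an alternative.

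In limma 3.58.1 under R 4.3.3, background was corrected by normexp (offset 50), ratios were normalized by loess within arrays, control, uneven and outlying spots were left out, and spots of a probe were averaged. The brightest probe stood for a gene. Diets were compared by the moderated test of limma (HF-Q minus HF, two-sided, Benjamini-Hochberg over all kept probes). An offset draws ratios of dim probes toward 0. The number of arrays limits the precision. The limma fit and the permutation test were tested on simulated data. Promoters and updated names come from RefSeq, GRCm38.p6.

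Members and lists were chosen with earlier results of these data known. Named were all members, up to 4 genes of lowest p per list (some are not reported here), and the 3 genes most correlated with Ugdh, Ugp2 and the transferase of lowest p. The brightness check and the comparison of promoters and Ugt2b37, Ugt2b38 and Ugt1a10 with members were chosen after values were seen. Slides 1, 2 and 3 held 4, 2 and 4 HF-Q and 3, 4 and 4 HF livers. Alternatives changed the background correction, normalization, channel, source, filter, probe choice, variance model, weights, slide, row and arrays.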

Additional observations from a re-analysis of the deposited data

How the results depend on the processing

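No member passed an adjusted p of 0.05 by limma under any alternative run, and Ugp2 was lower in HF-Q livers under all of them, between -0.40 (slide 2 alone) and -0.11 (slide 3 alone). Signs of the small differences were not stable, and the cause was not tested. The number of members lower in HF-Q livers, 8 as reported, was 3 with median centring, 4 in the deposited table, 5 on slide 2 alone and 4 on slide 3 alone. With median centring, the differences of Ugt2a3, Ugt2b5, Ugt2b34, Ugt2b35, Ugt3a2 and Ugt3a1 were 0.023, 0.063, 0.035, 0.0049, 0.039 and 0.013, the median of all probes was 0.022, 35.3% of probes were lower against 52.4%, 34 pairs of members passed, and r was 0.29 for Ugt2b1 and Ugdh and 0.35 for Ugdh and Ugp2. In the deposited table, Ugt2a3, Ugt2b5, Ugt2b34 and Ugt3a2 gave 0.0037, 0.036, 0.0034 and 0.0099, and 16 pairs passed. With Cy5 alone, Ugt2b5 and Ugt3a2 gave 0.0055 and 0.018, and the mean of both Ugt3a2 probes was 0.014. Array weights gave 1 probe past the adjusted threshold. With no filter on dim probes 2863 probes had an unadjusted p under 0.05, and with median centring 331. With the replicate block, Ugt2b5 and Ugt2b36 gave 0.0062 and 0.0017 and Ugp2 -0.19. Livers of the same number had r of -0.32 to 0.15 between their deviations. No value for livers of different numbers stands beside these, so they cannot settle a pairing, and the labels give none.

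On slide 1 alone, Ugt2b1, Ugt2b35, Ugt1a10, Sult1b1, Sult1a1 and Sult1d1 gave 0.14, 0.0013, -0.17, 0.088, 0.0011 and 0.019, with medians of -0.11 for other transferases and 0.13 for donor supply. On slide 2 alone, 1 probe passed the adjusted threshold, 978 had an unadjusted p under 0.05, and Ugt2b1, Ugt2b5, Ugt3a2, Dhdh, Abcg2 and Abcc2 gave 0.044, 0.037, 0.0057, 0.062, 0.015 and 0.036, with medians of 0.045 for donor supply, -0.047 for competing use and 0.015 for export. On slide 3 alone, Ugt2a3, Ugt2b5, Ugt2b34, Ugt2b35, Ugt1a6b, Slc35b1, Gys2, Galt and Abcc1 gave 0.059, 0.047, 0.0082, 0.089, 0.031, -0.12, 0.069, -0.068 and 0.0025, with medians of -0.11 for donor supply and -0.17 for release of glucuronic acid. Leaving out 1 liver at a time gave 0 to 1 probes past the adjusted threshold (1 without HF-Q replicate 10), 4 pairs (without HF-Q replicate 3) to 10 pairs, and differences of -0.025 to 0.015 for Ugt2b5, -0.094 to 0.0057 for Ugt2b1, -0.010 to 0.089 for Ugdh, -0.033 to 0.097 for Ugt1a10, -0.14 (without HF-Q replicate 4) to -0.039 for Abcc2 and -0.26 to -0.19 for Ugp2. Chosen after the data were seen, leaving out HF-Q replicate 10 and HF replicate 2 together, whose Cyp2b10 values lay with the other diet, gave 22 probes past the adjusted threshold and 2354 at an unadjusted p under 0.05, Ugt2b5 at 0.018, Abcc2 at 0.0031 and Cyp2b10 at -1.75; since these livers were picked by a value, those counts support nothing. Leaving out HF replicates 5 and 11, also chosen then, gave Ugt2b5 at 0.0044 and Ugt1a10 at 0.099. The alternatives for correlations were chosen after the data were seen as well.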
